A study of Stipitochalara longipes with 7 samples.

Results

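Gene expression of Stipitochalara longipes, an ascomycete fungus that the labels also call Chalara longipesis, was compared between 10 and 2 months of growth on Scots pine needle litter. The comparison takes the 3 libraries harvested at 10 months and the 2 libraries harvested at 2 months, which are 5 of the 7 libraries of the series, and all 19765 gene models in the deposited tables. The other 2 libraries, from 5 months, entered the low-count filter, the scaling and the fit, where they helped to estimate the spread. Means over all 7 libraries set the 8 abundant gene models (at least 1% of the reads) and the groups by level. The 5-month libraries are otherwise given as a description. Every microcosm, at 10 and at 2 months alike, contained sand (85 g) and dry needles (11 g), was sterilised by gamma radiation, received 20 ml of 100 mM ammonium chloride to stimulate growth and was kept sealed at 20 °C. The inoculum was single needles already colonised by the fungus for 2 months on nitrogen-free agar, so the fungus grew alone on sterile litter with added nitrogen. The labels give 12 microcosms per species, with 4 harvested at each time. Total RNA came from 800 mg of frozen, ground material per sample, and the labels call libraries of one harvest biological replicates.

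Pine needle litter is rich in lignin and waxes and poor in nitrogen. Fungi that live on it take up easily used sugars early and then depend on secreted enzymes that open cellulose, hemicellulose and lignin-bound material, while recycling their own nitrogen as it becomes scarce. The files do not pair the JGI (Joint Genome Institute) protein identifiers with names or products. No gene model can therefore be assigned to such a role here, and gene models are given by identifier and by the length that the deposited values imply.

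The libraries differed in how much of their sequence was left for most gene models. Total gene reads were 23125772, 29762444 and 39368275 at 10 months, against 32062885 and 43955094 at 2 months. The 8 most abundant gene models took 34.1%, 51.6% and 71.2% of the reads at 10 months, against 47.2% and 93.3% at 2 months, and this share did not differ between the harvests beyond the spread (exact permutation test, two-sided, p = 0.6, where the smallest p that 3 against 2 libraries allow is 0.2). Outside these 8, 11345883 to 15234169 reads remained in the 10-month libraries, against 16923473 and 2938002 in 2-month replicates 1 and 2. One read was worth 0.0226 to 0.0327 CPM at 10 months, against 0.0189 and 0.106 CPM in the 2-month libraries, where CPM stands for counts per 1000000 of a library size scaled by median of ratios. 2-month replicate 2 stood apart. It had no read on 5184 of the 14753 gene models tested, against 785 in 2-month replicate 1 and 219 to 1971 in the 10-month libraries. Its Spearman correlation with 2-month replicate 1 was 0.806, below the 0.856 to 0.903 of replicate 1 with the 10-month libraries and the 0.924 to 0.972 among the 10-month libraries.

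At 10 months 266 gene models had risen and 105 had fallen relative to 2 months, 371 in all. That is 2.51% of the 14753 tested, with 1.8% called higher at 10 months and 0.712% called lower (edgeR quasi-likelihood test, Benjamini-Hochberg adjusted p under 0.05, no fold minimum). The median log2 fold change was 2.67 over the risen and -3.21 over the fallen gene models, against 0.21 over all tested. These are bulk samples, so more cells of one kind and more RNA per cell cannot be told apart. No gene model passed in which 10-month and 2-month libraries overlapped, and over all tested gene models 38.5% did not overlap. The count depended on single libraries: leaving out 10-month replicate 1, 2 or 3 gave 129, 62 or 172 calls, and leaving out 2-month replicate 1 or 2 gave 4949 or 739, where the lone 2-month library takes its spread from the other groups and, without replicate 1, the median log2 fold change of all gene models was 1.28. Other fits that moved the count by more than 1.5 times included those without 5-month replicate 1 (184) or 2 (132), on the 5 libraries alone (85, with 46 higher and 39 lower), by DESeq2 (1814) and scaled by library size (0, with 373 at an unadjusted p under 0.05).

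**Figure D1:**
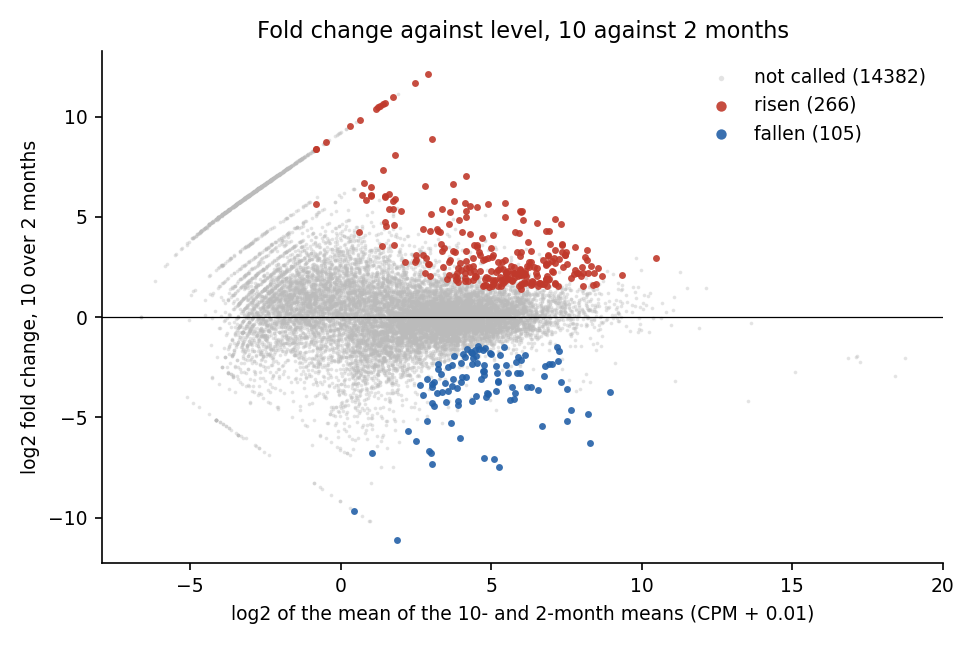
Each point is 1 of the 14753 gene models tested, with the log2 of its level (mean of the 10-month and 2-month means, CPM + 0.01) on the horizontal axis and its log2 fold change, 10 over 2 months, on the vertical axis. The 266 risen and 105 fallen gene models lie mostly at higher levels, and the straight upper and lower edges hold gene models with no read at one harvest, whose fitted fold change depends on the prior count.

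The changes that passed were large. Among the risen gene models, 60 differed by less than 4-fold, 98 by 4- to 8-fold, 37 by 8- to 16-fold, 50 by 16- to 64-fold and 21 by 64-fold or more. Among the fallen, these counts were 20, 27, 31, 15 and 12. The smallest log2 fold changes called were 1.41 for a rise and -1.44 for a fall. Gene models with no read at one harvest were placed by their lower bound, with 3 reads over the group as the floor. The harvests were also apart library by library: in 265 of the 266 risen gene models the lowest 10-month library was at least 2-fold above the highest 2-month library, and in 103 of the 105 fallen the highest 10-month library was at least 2-fold below the lowest 2-month library. The same test chose these gene models, so this separation describes them and is no further support.

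**Figure D2:**
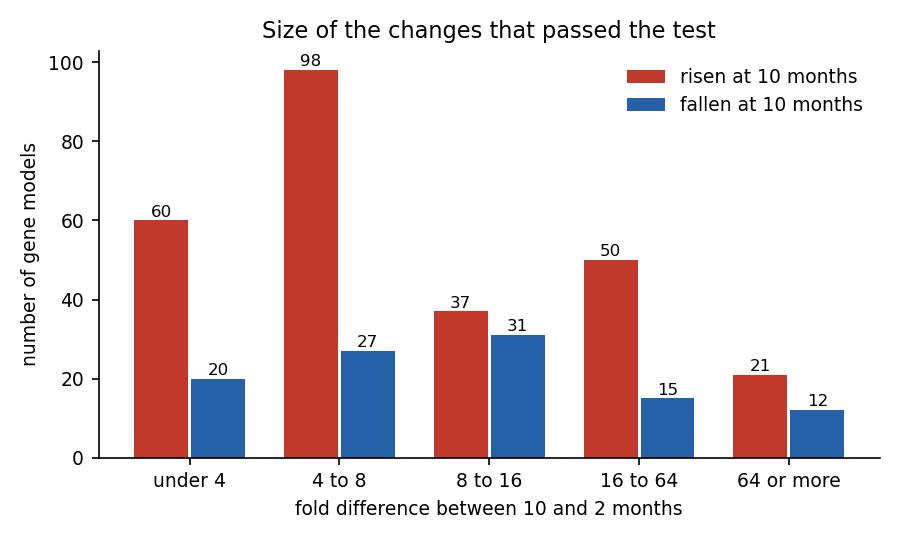
Bars count the gene models that passed the test in each class of fold difference between 10 and 2 months, risen and fallen separately. The class of 4- to 8-fold holds the most risen gene models (98) and the class of 8- to 16-fold the most fallen ones (31).

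Among the rises, the gene models with the highest level per length at 10 months were 558731 (1864 bp) and 463359 (768 bp). Gene model 558731 had 1831, 2441 and 3355 CPM in 10-month replicates 1, 2 and 3, against 360 and 291 CPM in 2-month replicates 1 and 2. All 3 libraries at 10 months lay far above both at 2 months, and 10-month replicate 3 was the highest. The means were 2542 ± 767 CPM (SD, n = 3) in 10-month libraries and 325 ± 48.8 CPM (SD, n = 2) in 2-month libraries. The log2 fold change was 2.97 with a standard error of 0.52 (adjusted p = 0.021, edgeR). Per length it stood at 1364 CPM per kilobase at 10 months, place 24 of 14753, against 174 at 2 months, place 232. At 5 months it had 361 and 309 CPM, close to the 2-month libraries and below all 10-month libraries. The call was lost without either 5-month library, without any one of the 10-month libraries and on the 5 libraries alone, with adjusted p of 0.0511 to 0.0716 and log2 fold changes of 2.75 to 3.16 (edgeR).

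Gene model 463359 had 556, 537 and 810 CPM at 10 months, against 149 and 85.5 CPM at 2 months. The 10-month libraries did not overlap with the 2-month libraries, and replicate 3 was again the highest. The mean was 634 ± 152 CPM (SD, n = 3) in 10-month libraries and 117 ± 44.8 CPM (SD, n = 2) in 2-month libraries. The log2 fold change was 2.44 with a standard error of 0.43 (adjusted p = 0.0234, edgeR). The 5-month libraries had 65.9 and 54.1 CPM, which is lower than both 2-month libraries. Its call was lost without 5-month replicate 2, without any one of the 10-month libraries and on the 5 libraries alone (edgeR adjusted p of 0.0551 to 0.0715), with log2 fold changes of 2.25 to 2.55.

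The falls with the highest level per length at 2 months were in 2 short gene models, 459577 (222 bp) and 355254 (372 bp). Gene model 459577 had 30.8, 19.7 and 10.3 CPM in 10-month replicates 1, 2 and 3, against 900 and 261 CPM in 2-month replicates 1 and 2. Every library at 10 months was far below both at 2 months, although the 2-month libraries themselves differed widely. The mean was 20.3 ± 10.3 CPM (SD, n = 3) in 10-month libraries and 581 ± 452 CPM (SD, n = 2) in 2-month libraries. The log2 fold change was -4.84 with a standard error of 0.73 (adjusted p = 0.0149, edgeR). Per length it stood at 91.4 CPM per kilobase at 10 months, place 561, against 2616 at 2 months, place 15. The 5-month libraries, with 8.32 and 30.3 CPM, lay in the range of the 10-month ones. Its log2 fold change was -3.69 without 2-month replicate 1, -5.53 without 2-month replicate 2, and -4.81 and -4.50 without 10-month replicates 2 and 3, where the call was lost (edgeR adjusted p of 0.055 and 0.0529).

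Gene model 355254 had 36.7, 35.2 and 12.04 CPM at 10 months, against 553 and 121 CPM at 2 months. All 10-month values lay below both 2-month values, and 10-month replicate 3 was the lowest. The mean was 28.0 ± 13.8 CPM (SD, n = 3) in 10-month libraries and 337 ± 305 CPM (SD, n = 2) in 2-month libraries. The log2 fold change was -3.59 with a standard error of 0.65 (adjusted p = 0.024, edgeR). At 5 months it had 48.0 and 45.1 CPM, just above the 10-month libraries. The size of the fall rested on 2-month replicate 1: its log2 fold change was -2.11 without that library and -4.37 without replicate 2. The call was lost without 5-month replicate 2, without any one of the 10-month libraries and on the 5 libraries alone (edgeR adjusted p of 0.0521 to 0.0716). All reads on the 4 gene models were unique in every library, and none of the 4 was called when scaled by library size.

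**Figure D3:**
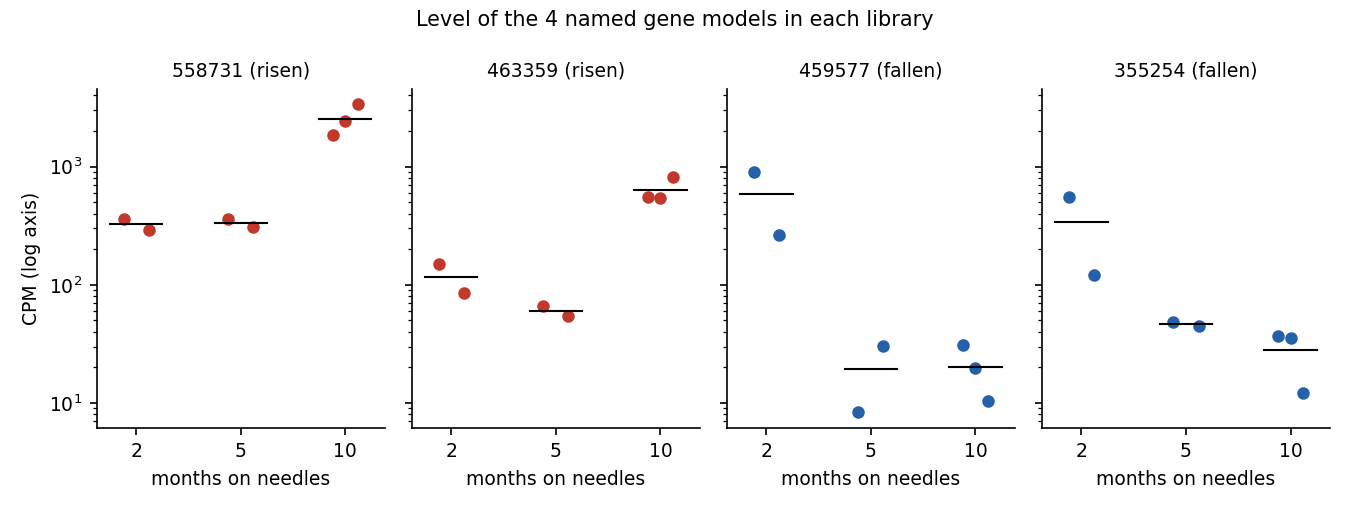
Points are single libraries and horizontal lines the means of a harvest, with months on needles on the horizontal axis and CPM on a log vertical axis. The 10-month libraries of 558731 (1831 to 3355 CPM) and 463359 (537 to 810 CPM) stand above all others, and the 2-month libraries of 459577 and 355254 stand above all later ones.

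The risen gene models took a growing part of the reads outside the 8 abundant ones. They held 9.17%, 8.67% and 9.28% of these reads in the 10-month libraries, against 2.06% and 1.73% in the 2-month libraries. Means were 9.04% ± 0.322 (SD, n = 3) in 10-month libraries and 1.90% ± 0.233 (SD, n = 2) in 2-month libraries. The 105 fallen gene models held 0.362%, 0.325% and 0.242% at 10 months, against 3.18% and 2.65% at 2 months, with means of 0.310% ± 0.0617 (SD, n = 3) and 2.91% ± 0.378 (SD, n = 2). Libraries of one harvest were close together in these shares, also 2-month replicates 1 and 2, which are far apart in the share of the abundant gene models. The 5-month libraries, with 4.22% and 5.22% on the risen and 0.707% and 0.842% on the fallen gene models, lay between the harvests that chose them. The widest 95% Wilson interval of these shares was 1.72% to 1.75%, for the risen gene models in 2-month replicate 2, and such intervals cover counting error only. Since the contrast itself chose the gene models, the shares carry no test.

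**Figure D4:**
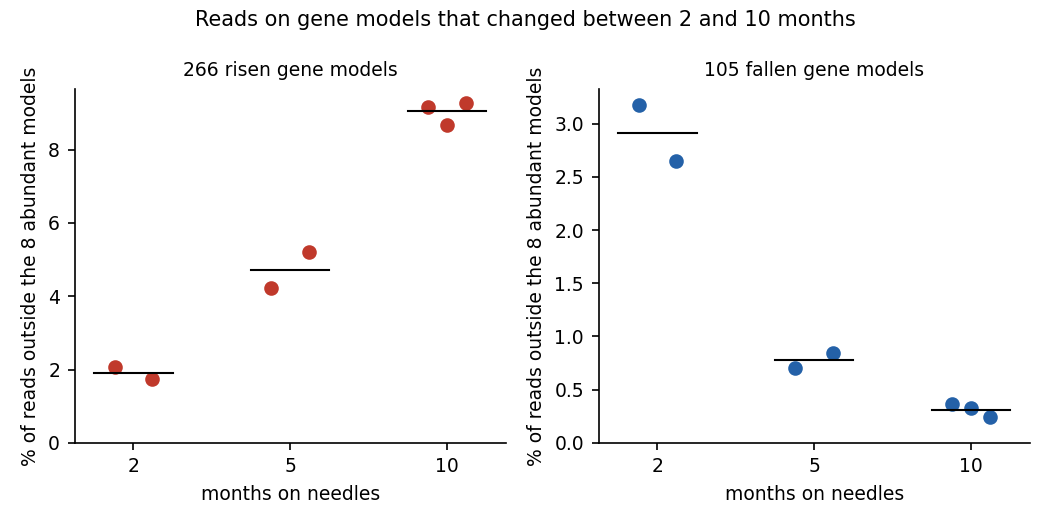
Points are libraries and lines harvest means, with months on needles on the horizontal axis and the percentage of reads outside the 8 abundant gene models on the vertical axis. At 2, 5 and 10 months the means were 1.90%, 4.72% and 9.04% on the risen gene models, and 2.91%, 0.775% and 0.310% on the fallen ones.

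The rise was spread over many gene models. At 10 months 98 of the 266 risen gene models had a mean of at least 100 CPM, against 9 of the same gene models at 2 months. The most abundant of them, 558731, made up 7.79% of the reads on risen gene models at 10 months, the 10 most abundant together 24.8%, and 34 gene models (12.8%) were needed to reach 50%. None of the 105 fallen gene models had a mean of 100 CPM or more at 10 months, where their highest mean was 76.9 CPM, against 24 gene models at 2 months. At 2 months the 10 most abundant of them made up 45.3% of their reads, and 13 gene models (12.4%) reached 50%, a share of the set close to that among the risen ones. Both sets were chosen by the contrast for their direction, so the counts at 100 CPM describe them and are no further support.

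The abundant part of the transcriptome was only partly the same at 10 and 2 months. The 100 gene models with the highest level per length outside the 8 abundant ones were listed for each library. Lists of a 10-month and a 2-month library shared 55 to 63 gene models over the 6 pairs, against 75, 77 and 83 between 10-month libraries and 67 between the 2-month libraries. The 2-month libraries shared little more with each other than with the 10-month libraries. Of the lists made from the harvest means, 65 gene models stood on both. The 10-month list held 12 of the risen gene models and none of the fallen ones, whereas the 2-month list held 5 of the fallen and none of the risen. Lists and calls came from the same libraries, so the choice favours this direction and it is no further support. Of all tested gene models 1.8% were called higher and 0.712% lower. In the highest of 4 equal groups by mean CPM these shares were 5.50% and 1.65%. The number of gene models that held 50% of the reads outside the 8 was 430, 375 and 378 at 10 months, against 445 and 356 at 2 months, with no difference beyond the spread (exact permutation test, two-sided, p = 1).

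The 8 abundant gene models themselves gave 0 calls, where 2.51% of all tested gene models were called. Their log2 fold changes were all negative, from -2.91 to -0.27, but 10-month and 2-month libraries overlapped in each of them and the smallest adjusted p was 0.415 (edgeR). Their share was higher in replicate 2 (93.3%) of the 2-month libraries and highest in replicate 3 (71.2%) of the 10-month libraries. The first lies in the direction of the negative fold changes and the second lies opposite to it. The part of either library in the differences was not tested.

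A few gene models went between no read and clear expression. Of the gene models tested, 321 had reads in all 3 libraries at 10 months and none in either at 2 months. Of these, 13 (4.05%) were among the rises called, where 1.8% of all tested gene models were called higher at 10 months. Gene models chosen this way cannot overlap between the harvests, so shares of all tested are no like comparison. The tested gene models without overlap numbered 3625 higher at 10 months, which held all 266 rises, and 2062 lower, which held all 105 falls. These 13 had 24 to 901 reads in single 10-month libraries, or 1.11 to 13.3 CPM with the reads of the 3 libraries pooled. Against the floor of 3 reads over both 2-month libraries (0.0481 CPM), these pooled levels were at least 23.2-fold to at least 277-fold higher at 10 months. Each of the 13 already had reads in both 5-month libraries. In the other direction, 9 gene models had no read in any 10-month library and reads in both 2-month libraries, and 2 of these (22.2%) passed, where 0.712% of all tested gene models were called lower. The pair had 26 to 143 reads in single 2-month libraries, or 2.71 and 4.01 CPM with the reads of both pooled. Against the floor of 3 reads over the 10-month libraries (0.0263 CPM), they were at least 103-fold and at least 152-fold lower at 10 months.

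Zeros at 2 months came unequally from the 2 libraries. Of the 266 risen gene models, 46 had no read in 2-month replicate 2 and 15 had none in replicate 1. Of all 14753 tested, 5184 and 785 had none there. Of the 105 fallen gene models, 2, 2 and 9 had no read in 10-month replicates 1, 2 and 3, against 219, 356 and 1971 of all tested. No call overlapped between the harvests. This alone gives every risen gene model reads in all 10-month libraries and every fallen one reads in both 2-month libraries. Without 2-month replicate 2, 202 of the 266 rises and 99 of the 105 falls were still called, among 419 rises and 320 falls in all. The part of depth in 2-month replicate 2 was not tested.

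Calls concentrated in gene models at higher levels. The tested gene models were divided into 4 groups of equal size by their mean CPM over all libraries. The highest group (15.8 CPM and above) held 203 rises and 61 falls. These were 5.50% and 1.65% of the group, against 1.8% and 0.712% of all tested. The next group (4.06 to 15.8 CPM) held 43 rises and 39 falls (1.17% and 1.06%). The group from 0.884 to 4.06 CPM held 20 rises and 4 falls (0.542% and 0.108%), and the lowest held 0 rises and 1 fall. Depth moved with these counts: 2-month replicate 2 had no read on 81.9% of the lowest group and 46.1% of the next, against 0.813% of the highest, and the part of depth was not tested. In the lowest group the median log2 fold change was 0.86, although no rise was called there, against 0.20 in the highest group.

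Length and uniqueness of the changed gene models were close to those of all gene models tested. The median implied length was 1617 bp for the risen and 1500 bp for the fallen gene models, against 1424 bp for all tested. Unique reads made up 99.95% of the reads on risen and 99.96% of those on fallen gene models, and 1 of the 371 had less than 90% unique reads, against 164 of all tested. The median level per length of the risen gene models was 36.5 CPM per kilobase at 10 months and 6.83 at 2 months. For the fallen it was 3.87 at 10 months and 28.5 at 2 months, so fallen gene models at 10 months stood slightly above the median of all tested, 2.45.

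Levels of the changed gene models also varied among the libraries of a harvest. 10-month replicate 3 was the highest of the 3 for 124 of the 266 risen gene models, against 81 for replicate 1 and 61 for replicate 2. It was the lowest of the 3 for 71 of the 105 fallen gene models, against 13 for replicate 1 and 21 for replicate 2. At 2 months, replicate 1 was the higher for 199 of the 266 risen and for 44 of the 105 fallen gene models. These orders were not counted over all tested gene models. By group of mean CPM, lowest first, 2-month replicate 2 over replicate 1 had median log2 ratios of -2.18, -2.18, -0.191 and -0.223. For 10-month replicate 3 over the mean of replicates 1 and 2, these were -0.898, -0.167, -0.091 and 0.0465. No read fell in 2-month replicate 2 on 81.9% of the lowest group and 46.1% of the next. In 10-month replicate 3 this held for 44.1% of the lowest group. The ratios of these groups therefore depend on the prior count. The part of such shifts in the orders was not tested. The median range over the 10-month libraries was 0.68 on the log2 scale for the risen and 0.95 for the fallen gene models, against 0.90 for all tested. The 2-month libraries differed by a median of 0.63 and 0.72, against 1.46 for all tested. The test favours gene models whose libraries of one harvest are close, so a smaller spread among calls is no separate finding. The value for all tested also covers gene models at low levels, and 2-month replicate 2 had no read on 81.9% of the lowest group.

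The 5-month libraries place the changed gene models in time. On the log2 scale, the 5-month mean lay between the other harvests for 178 of the 266 risen (66.9%) and for 84 of the 105 fallen gene models (80%). Over all tested gene models this held for 34.0% of those higher and 36.01% of those lower at 10 months, and a choice of gene models with well-separated 10- and 2-month means favours a 5-month mean between them. The 5-month level was nearer to the 10-month level, or beyond it, for 80 of the 105 fallen gene models (76.2%), as it was for 459577 and 355254. Of the risen gene models this held for 131 (49.2%), and 35 stood at or below their 2-month level at 5 months, among them 463359. For 53 risen gene models the 5-month mean was above the 10-month mean. Over all tested gene models, 70.6% of those higher and 51.2% of those lower at 10 months were nearer to the 10-month level at 5 months. Under TMM scaling, 122 of the risen and 83 of the fallen gene models were nearer to the 10-month level. The difference in timing between rises and falls was not tested.

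**Figure D5:**
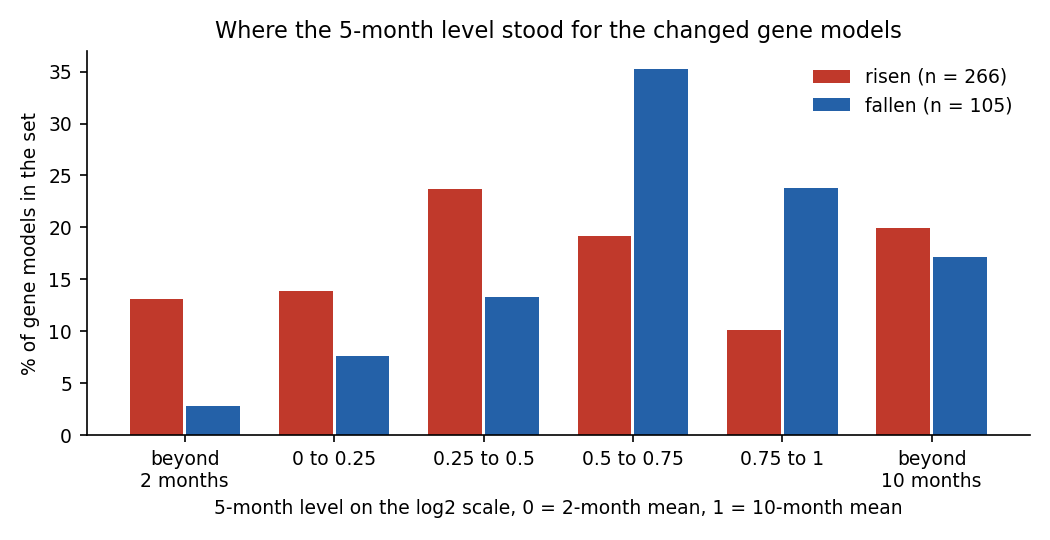
Bars give the percentage of the 266 risen and 105 fallen gene models by where their 5-month mean stood on the log2 scale, from 0 at the 2-month mean to 1 at the 10-month mean. Of the fallen gene models, 35.2% stood at 0.5 to 0.75 and 23.8% at 0.75 to 1, whereas the risen ones were spread more evenly over the range.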

How the data were processed

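RNA-seq tables were used for 7 libraries (3 at 10, 2 at 2 and 2 at 5 months). Per the file headers, the authors deposited for each of 19765 gene models an RPKM value and read counts, unique and total. The deposited RPKM divides total gene reads by model length and library total (checked: implied lengths differed between libraries by at most 0.0045 bp), and served to recover lengths. The sources used here give no aligner, counter, build, annotation or strand handling. Total gene reads passed filterByExpr (14753 models), were scaled by median of ratios, and were fitted with harvests as 3 groups in edgeR 4.0.16 (R 4.3.3), tested on simulated data. The contrast was 10 minus 2 months with Benjamini-Hochberg adjustment. A standard error is the log2 fold change over the root of its F. Log2 levels used a prior count of 2. Alternatives used DESeq2 1.42.0 and limma 3.58.1. A count of 0 over all libraries of a harvest allows 3 reads, 0.0263 CPM at 10 months and 0.0481 CPM at 2 months, for counting error only, as the reads carry no molecular identifiers. Where nothing names separate cultures, p-values measure only the spread between these samples. The comparison, its scaling and its alternatives were chosen with earlier results of these data known. Named gene models are the 2 rises with the highest mean level per length at 10 months and the 2 falls with the highest at 2 months, among calls without overlap. The product-word gene lists could not be applied, because the files pair no identifier with a product.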

Additional observations from a re-analysis of the deposited data

How the results depend on the processing

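Counts are given for all changes, rises and falls, which were 371, 266 and 105. Library size alone gave 0, 0 and 0 (edgeR; 373, 318 and 55 had an unadjusted p under 0.05), with a median log2 fold change over all gene models of 0.60 in place of 0.21. No low-count filter gave 993, 645 and 348, DESeq2 1814, 1157 and 657, and the 5 libraries alone 85, 46 and 39. Without 2-month replicate 2 and 10-month replicate 3 the counts were 2154, 1335 and 819, including 370 of the 371, in a fit that takes the lone 2-month library to vary like the other groups. Limma-voom with quality weights called 202 rises and 184 falls, 386 in all with 227 of the 371 among them. With 1 library left out they ran between 62 and 4949, 40 and 3388, and 22 and 1561. In each case the cause was not tested. With the replicate block the counts were 130, 89 and 41, of the 4 named gene models it called 459577 alone, and same-numbered libraries did not deviate together (correlations of -0.22 to 0.04). TMM, unique reads, the fit without the 8 abundant gene models and their share as a covariate kept the counts within 1.5 times. With TMM the mean share of reads on risen gene models was 8.04% at 10 months and 1.60% at 2 months. Gene models 558731, 463359, 459577 and 355254 kept their direction in all 18 alternatives and were called in 10, 11, 15 and 11 of them, with adjusted p up to 1 (library size). One read was worth 0.106 CPM in 2-month replicate 2, and a count of 0 there allows 3 reads, or 0.318 CPM. The part of depth in the calls was not tested.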
